A study of Drosophila melanogaster with 12 samples.

Results

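The transcriptome of male fly heads 1 day after the end of a chronic drug treatment is described here across all genes measured at that time. The values were taken from the 4 deposited columns of day 8, which held identical values wherever more than 1 of them had a value for a spot, and which were therefore merged into 1 sample. The spots of a gene were averaged, and a gene was kept when its spots lay within 1 of each other on the log2 scale. This left 2010 genes of the 6793 genes named on the array, or 29.6%. A further 122 of the 2132 genes with a day 8 value were left out because their spots differed by more. Of the 2010 genes, 1984 were measured on at least 2 spots and 26 on a single spot. Spots naming 1 gene came in 7558 neighbouring pairs of the same gene. A gene on a single spot therefore had no day 8 value on the neighbour, and it passed the limit with nothing to compare.

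Pentylenetetrazol (PTZ) is a convulsant that blocks the chloride channel of GABA-A receptors, the fast inhibitory receptors of the brain. Repeated doses below the seizure level raise excitability over time in rodents, a process called kindling, and PTZ in the food is a way to expose Drosophila melanogaster to it chronically. A 2-colour cDNA array hybridises labelled RNA of both groups to the same spots, so that each spot gives a ratio between the groups and not a level in either.

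The withdrawn flies of day 8 were unmated wild-type Oregon-R males that ate food with 8 mg/ml PTZ for 7 days and then normal food for 1 day. Later samples had 3 days (day 10) or 7 days (day 14) on normal food. The untreated flies were males of the same stock and age that ate normal food throughout and were harvested on the same day. The age at the start is 3 to 4 days in the series text and 4 to 5 days in the sample labels. Vials held 30 flies, and RNA came from pools of frozen heads collected on sieves, so no value belongs to a single animal. Each day had 4 arrays, described as biological replicates. The day 8 columns held 2316 to 7454 values of 27648 spots, and the arrays of day 10 and day 14 held 4310 to 19807.

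Positive values mean a higher signal in the withdrawn heads. That direction comes from the channel labels, which place the treated heads in Cy5 on all 12 arrays, and it is not settled. Per the series text, the dyes were exchanged on 2 of the 4 arrays of a day, and for day 8 the labelling text of the untreated channel also names Cy5. If the labels are turned, "higher" and "lower" change places throughout for day 8. The labels do not state the base of the logarithm, and 2 was taken. The median of each column was set to 0, so each value is relative to the typical spot of its column. In pooled heads, fewer cells of a type and less RNA per cell cannot be told apart. Because the day has 1 sample, counts by size carry no p-value, and tests borrow the spread of the other days. The sources used here do not say how many arrays stand behind the deposited day 8 values.

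Head tissue could be checked only by which spots gave a usable signal. Photoreceptor marker genes had a day 8 value for 9 of 13 genes on the array, muscle markers for 7 of 10, fat body markers for 8 of 14 and neuron markers for 2 of 4. Glia markers and female germ line markers each had one for 3 of 8, testis markers for 2 of 11, blood cell markers for 2 of 9 and gut markers for 1 of 5, against 31.4% of all named genes. The neuron markers with a value were nSyb and Rab3, and the other 2 on the array had none.

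Most genes had nearly equal signal in withdrawn and untreated heads on day 8. The median of the 2010 genes was 0.01, the quartiles were -0.18 and 0.16, and 90.7% of the genes lay within 0.5 of zero. The distribution had a long lower tail. Single genes ran from -3.63 to 4.17, and at a size of 1.5-fold 24 genes were higher and 121 lower in the withdrawn heads. At a size of 1 on the log2 scale, 9 genes (0.448%) were higher and 47 genes (2.34%) were lower in the withdrawn heads, 56 in all (2.79%). On the 8 arrays of the later days, 0 to 1.16% of the same genes stood at 1 or more and 0 to 0.233% at -1 or less. The SD across genes was 0.39 on day 8 and 0.21 to 0.36 on the other arrays. The SD over all genes kept, which does not depend on the direction of the ratio, was highest on day 8. Setting 1 sample against 8 arrays cannot give an exact one-sided permutation p below 0.111, which is its value for that SD. Over the 1984 genes on at least 2 spots, the day 8 SD was 0.351, while replicate 4 of day 10 had 0.355 without that limit. The rank was not computed with that limit on every array. With the sign of day 8 turned, 2.34% of the genes would stand at 1 or more and 0.448% at -1 or less.

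**Figure D1:**
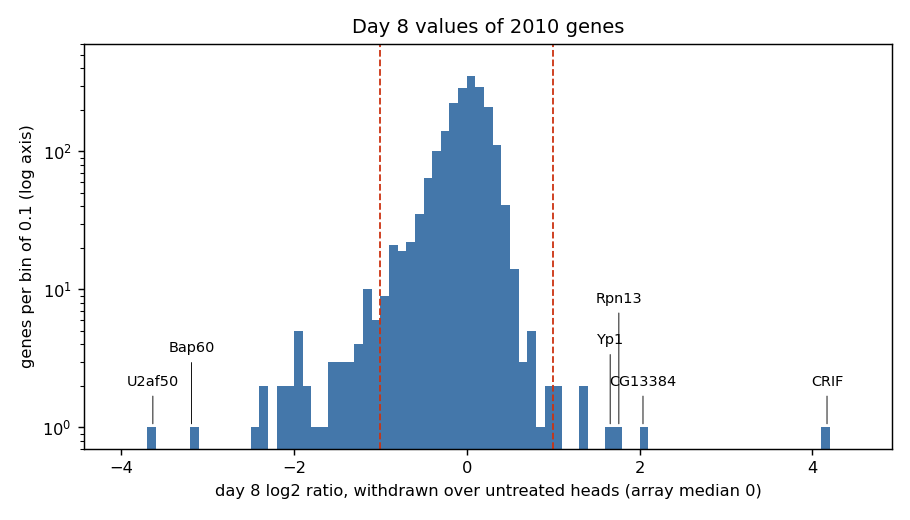
Histogram of the day 8 log2 ratios (withdrawn over untreated heads, x axis) of the 2010 genes in bins of 0.1, with the number of genes on a log axis. Dashed lines mark -1 and 1, and the tail below -1 holds 47 genes against 9 above 1.

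The precision of a gene was read from its twin spots, pairs of neighbouring spots that carry the same gene name. On day 8 the difference between twins had an SD of 0.62 over 2236 pairs, against 0.25 to 0.45 on the other 8 arrays. The typical pair was as tight as elsewhere, with a median absolute difference of 0.142 on day 8 and 0.128 to 0.21 on the other arrays. The wider SD came with more discordant pairs, since 5.10% of day 8 pairs were over 1 apart, against 0.806% to 3.87%. Among pairs within 1 of each other, the limit set for genes, the SD was 0.264 on day 8 and 0.228 to 0.333 on the other arrays. The tests below raised the day 8 error by the SD over all pairs. Values below are therefore given spot by spot. At the limit of 1, the genes just inside were CG5050, CG15107 and mRRF1, with spots 0.985, 0.997 and 0.998 apart. Just outside were bigmax, CG14618 and CG3788, with spots 1.024, 1.026 and 1.026 apart.

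limma called 3 of 1954 genes tested against zero (0.154%), with an adjusted p under 0.05 and the day 8 error raised 1.83 times to match its twin spots. The number at an unadjusted p under 0.05 was 42. CRIF was higher in the withdrawn heads, and U2af50 and Bap60 were lower. Genes on 1 spot, whose twin gave no day 8 value, were not filtered by the distance between spots. CRIF and U2af50 were each measured on 1 spot, and no gene was called when the test was limited to genes on at least 2 spots (smallest adjusted p = 0.0863 in limma). With the spread of the other days taken unchanged, 31 genes were called, 5 higher and 26 lower.

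U2af50 (CG9998) encodes the larger part of U2AF, which binds the 3′ end of introns early in splicing. Its single spot stood at -3.63 in the withdrawn heads, a ratio of 0.0807 to untreated heads (SE 0.41, limma adjusted p = 0.00298), and the same value stood in all 4 columns. On day 10 the gene had -0.13, 0.24, -0.22 and -0.45, and on day 14 it had 0.01, 0.02, 0.08 and 0.16 in replicates 1 to 4. All 8 later values lay more than 3 above that of day 8. The difference was -3.49 for day 8 minus day 10 (SE 0.43, limma adjusted p = 0.00564) and -3.70 for day 8 minus day 14 (SE 0.43, limma adjusted p = 0.00251).

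Bap60 (CG4303) encodes a subunit of the Brahma chromatin-remodelling complexes. Its day 8 spots were -3.54 and -2.83, a mean of -3.18 and a ratio of 0.110 to untreated heads (SE 0.39, limma adjusted p = 0.0291). It had 0.26 and -0.03 in replicates 1 and 3 of day 10 and -0.19, -0.02 and -0.21 in replicates 1 to 3 of day 14. Both day 8 spots lay far below every later value. Day 8 minus day 14 was -3.05 (SE 0.41, limma adjusted p = 0.0394), and day 10 had too few values for that test. The call against zero was lost when replicate 1, 2 or 3 of day 14 was left out and with values as deposited. Although Bap60 has 2 spots, it was not called against zero or against day 14 in the tests limited to genes on at least 2 spots.

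CRIF (CG7172) is the fly counterpart of mammalian CRIF1, a mitochondrial protein needed there to make subunits of the respiratory chain. It stood at 4.17, an 18.0-fold ratio of withdrawn to untreated heads (SE 0.37, limma adjusted p = 0.00298), on 1 spot and in 1 of the 4 columns. On day 10 it had 0.10, 0.16 and -0.16 and on day 14 it had 0.14, 0.25 and 0.09 in replicates 1 to 3. The later values lay close to zero. Day 8 minus day 10 was 4.13 (SE 0.39, limma adjusted p = 0.00500) and day 8 minus day 14 was 4.01 (SE 0.39, limma adjusted p = 0.00251). Without the column of replicate 2, which alone held it, the gene had no day 8 value. With values as deposited, CRIF was not called against day 14.

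Day 8 was set against the later days in the same fit. For day 8 minus day 10, 2 of 1822 genes were called (0.11%), CRIF and U2af50, and 31 had an unadjusted p under 0.05. For day 8 minus day 14, 3 of 1397 genes were called (0.215%), those above, and 31 had an unadjusted p under 0.05. These tests share the day 8 sample with the test against zero. CRIF had day 10 values in replicates 1 to 3, and CRIF and Bap60 had day 14 values in replicates 1 to 3. Leaving out any of those arrays left fewer than the 3 values that a difference between days needed. U2af50, with 4 values on each later day, was still called against that day. CRIF and Bap60 were then not tested, so this does not show how their differences depend on an array.

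Of the 56 genes at or past 1, 17 (30.4%) belong to any of the 52 gene lists, which hold 432 of the 2010 genes (21.5%). Of the 56 genes, 53 had a value on day 10 and 53 on day 14. Of those, 1 gene had a mean past 1 on day 10 and none on day 14, and 5 genes were past 1 on some single later array. Among the genes lower on day 8, the mean was below zero for 24 of 44 on day 10 and for 29 of 44 on day 14. Among the 9 higher genes, it was above zero for 8 on day 10 and for 2 on day 14. The share of means below zero over all genes was not computed, so these counts show neither a lasting nor a reversed change. Over the genes kept, single arrays of day 10 held 654 of 1754 (replicate 2) to 1229 of 1854 (replicate 3) below zero. Those of day 14 held 451 of 1148 (replicate 2) to 1166 of 1900 (replicate 1).

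Of the 4 measured genes of insulin and TOR signalling, 1 stood at or past 1, against 2.79% of all 2010 genes. A list of 4 genes is too small to be set against that share. The gene was ImpL2, a secreted protein that binds and antagonises insulin-like peptides, with spots of -1.15 and -0.90 on day 8. On day 10 it had -0.52 and 0.85 in replicates 1 and 4, and on day 14 it had 0.41, 0.01 and 0.17 in replicates 1, 3 and 4, so that day 8 was lowest. The others were close to zero, with Ilp2 at 0.00, S6k at -0.08 and Sesn at -0.13. Outside that list, 2 signalling genes are described from the lowest values. Where a gene was picked for an extreme day 8 value, here and elsewhere, lying apart from its later values follows partly from that choice. Such a comparison is a description and not a test. Axn, the Axin scaffold of the complex that degrades beta-catenin in Wingless signalling, had spots of -2.51 and -2.29. On day 10 it had -0.54, 0.57 and 0.49 in replicates 1, 3 and 4, and on day 14 -0.05 in replicate 1. Lst8, a subunit of the TOR kinase complexes, had spots of -2.34 and -1.80 on day 8. It then had 0.13, -0.33, 0.10 and 0.08 on day 10 and -0.37, 0.10 and 0.15 in replicates 1 to 3 of day 14. Day 8 lay apart from all later values of both genes, yet the limma adjusted p against zero was 0.999 for Axn and 0.281 for Lst8.

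Of 19 measured translation factors and their kinases, 6 were above and 13 below zero, with a median of -0.07. With the median of each run of spots described below set to 0, 9 were above and 10 below zero. None of the 19 stood at or past 1, against 2.79% of all 2010 genes, a share at which a list of this size would often hold none. Of all 2010 genes, 51.7% were above and 48.3% below zero. mRF1, a mitochondrial release factor, was highest at 0.53. PEK, the kinase that phosphorylates eIF2alpha under endoplasmic reticulum stress, was lowest, with spots of -0.98 and -0.97. PEK had -0.11, -0.12 and -0.37 in replicates 1 to 3 of day 10 and 0.45, -0.03 and 0.20 in replicates 1 to 3 of day 14, all above both of its day 8 spots. The tRNA synthetase genes measured on their list, GluRS-m and ArgRS-m of mitochondria, stood at 0.07 and 0.16. On neither list, DENR, which restarts ribosomes after upstream reading frames, had spots of -2.25 and -2.61 on day 8. It had -0.01 on the day 10 array that measured it and -0.05, -0.05 and 0.17 in replicates 1 to 3 of day 14, so that day 8 lay more than 2 below (limma adjusted p = 0.267 against zero). alpha-PheRS, the alpha subunit of cytosolic phenylalanyl-tRNA synthetase, was also on neither list and had spots of -1.37 and -0.95.

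Mitochondrial genes differed among themselves. mRpL24, a protein of the mitochondrial ribosome, had spots of -1.46 and -2.44 on day 8. In replicates 1 to 3 it had 0.00, 0.24 and -0.30 on day 10 and -0.16, -0.07 and -0.02 on day 14, far above day 8 (limma adjusted p = 0.281 against zero). Letm1, a cation and proton exchanger of the inner membrane, had spots of -1.20 and -1.41, and PNPase, a mitochondrial RNA nuclease, had -1.43 and -0.94. Scsalpha2 and ScsbetaA, an alpha and a beta subunit of succinyl-CoA synthetase of the citric acid cycle, stood at -1.77 and -0.87. The other citric acid cycle genes measured, Idh3a, SdhD, muc and Mdh1, stood between 0.03 and 0.36. Mitochondrial ribosomal proteins spread on both sides of zero, 8 of 17 above and 9 below, with mRpS34 at 0.60 from spots of 0.66 and 0.54. Besides Letm1, the genes of mitochondrial import and carriers were above zero, 8 of 9 in all, with Mpcp2, a phosphate carrier, highest at 0.39.

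Oxidative phosphorylation and ribosomal protein genes leaned slightly above zero. Of 21 oxidative phosphorylation genes, 15 were above zero with a median of 0.06, and 1 beyond 0.4 in size, the complex I gene ND-20 at -0.48. ATPsyngamma, a subunit of the ATP synthase, was highest at 0.23. Of 15 cytosolic ribosomal protein genes, 12 were above zero with a median of 0.07. RpL23 was highest at 0.51, from spots of 0.22 and 0.80, and RpS12 lowest at -0.66, from spots of -0.70 and -0.63. The lean of both lists was smaller when the run medians were set to 0, at which the medians were 0.02 and 0.03 and the genes above zero 11 of 21 and 9 of 15.

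Genes of lipid metabolism were mostly below zero. Of 10 such genes, 9 were below zero with a median of -0.21, against a median of 0.01 over all genes. Cerk, the ceramide kinase gene, was lowest at -1.47 on 1 spot. It was the 1 gene whose mean was past 1 on a later day as well, with the opposite sign, at 1.28 on day 10, a mean of the single array that measured it. CPT2, which carries fatty acids into mitochondria, followed at -0.73, and the apolipophorin gene apolpp stood at -0.35. FASN3, a fatty acid synthase, was highest at 0.24. With the run medians set to 0, the list median was -0.30 and 7 of 10 genes were below zero. Hacd1, a dehydratase of very long fatty acid elongation, had spots of -2.45 and -2.32, and Dhdds, which makes dolichol precursors for protein glycosylation, had -1.18 and -1.87. Neither is on that list. Hacd1 had -0.21, 0.06 and 0.41 in replicates 1 to 3 of day 10 and -0.36 and 0.01 in replicates 1 and 3 of day 14, all far above day 8 (limma adjusted p = 0.281 against zero).

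Membrane traffic as a whole was centred on zero, with 16 of 32 genes above it. Sec22, a SNARE of transport between the endoplasmic reticulum and the Golgi, stood apart with spots of -1.43 and -2.39. It had -0.23, -0.15, -0.42 and -0.32 on day 10 and -0.49, -0.83, -0.04 and 0.00 on day 14, so that it was below zero on 7 of the 8 later arrays but furthest on day 8 (limma adjusted p = 0.438 against zero). Tango6 stood at -1.01. hook, which encodes an adaptor linking cargo to microtubule motors, stood at -2.13 on 1 spot. Arpc1, a subunit of the Arp2/3 actin nucleator, was the lowest of 12 cytoskeleton genes at -1.14, with spots of -0.68 and -1.61.

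In the nucleus, 2 further groups held low members. Atac2, the acetyltransferase subunit of the ATAC histone acetylation complex, had nearly equal spots of -1.23 and -1.21. Atac2 had 0.33 and 0.43 in replicates 2 and 3 of day 10 and -0.13, -0.24 and -0.29 in replicates 1 to 3 of day 14, all above day 8 (limma adjusted p = 0.814 against zero). Of 18 chromatin genes, 8 were above and 10 below zero with a median of -0.08. With the run medians set to 0, 4 were above and 14 below. The histone deacetylase gene Sirt2 was highest at 0.31. RanGAP, the GTPase activator that maintains the Ran gradient across the nuclear envelope, had spots of -0.92 and -1.18, and the nuclear pore gene Nup75 had -1.19 and -1.04. Both belong to the 8 nuclear transport genes measured, of which 3 were above zero, or 4 with the run medians set to 0. U2af50 was 1 of 11 splicing factors, 4 above and 7 below zero, or 5 and 6 with the run medians set to 0. Next to it, glo stood at -0.82, and Prp18, which acts in the later step of splicing, was highest at 0.27. Of 22 cell cycle and DNA replication genes, 14 were above zero, with Mcm3 of the replicative helicase at 0.40 and RPA2, of the single-strand binding complex, lowest at -0.84.

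**Figure D2:**
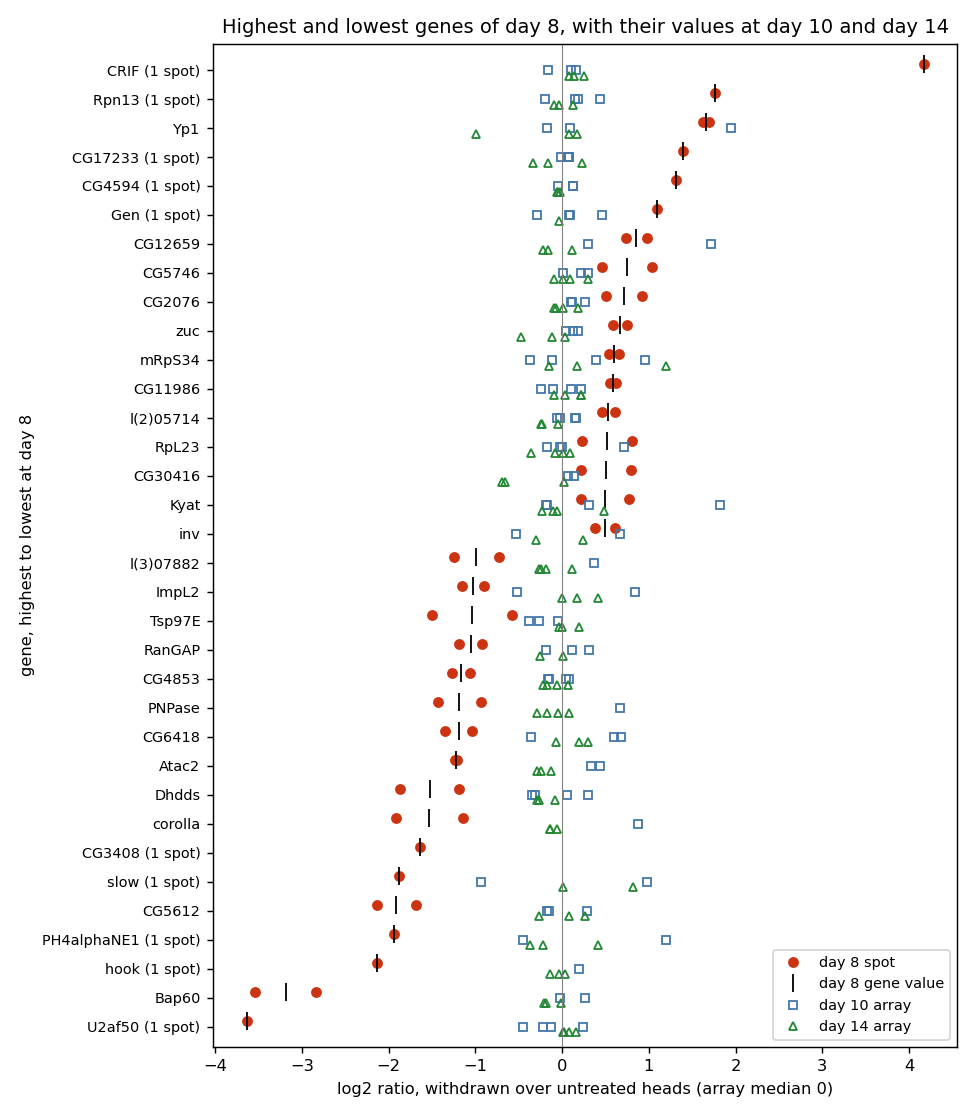
Log2 ratios of withdrawn over untreated heads (x axis) for the 12 highest and 12 lowest genes measured on at least 2 spots and in at least 2 columns, and the 5 highest and 5 lowest genes on 1 spot. Red circles are day 8 spots with the gene value as a bar, blue squares the day 10 arrays and green triangles the day 14 arrays, and the day 8 values of U2af50, Bap60 and CRIF lie beyond every later value.

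The day 8 columns hold the same values, so a second column is not a second measurement. Among genes on at least 2 spots and in at least 2 columns, 12 of 1020 were at or past 1 (1.18%), 1 of them higher. The higher gene was Yp1. Below the size of 1, the next highest were CG12659 at 0.85, CG5746 at 0.75, CG2076 at 0.71 and zuc, which encodes a nuclease of the piRNA pathway, at 0.67. CG12659 had spots of 0.97 and 0.73, and 0.30 and 1.72 in replicates 3 and 4 of day 10, so that 1 later array exceeded day 8. The lowest after Bap60 were CG5612 with spots of -2.14 and -1.69, corolla with -1.14 and -1.92, and Dhdds and Atac2 as given above. corolla encodes a protein of the meiotic synaptonemal complex. CG5612 had -0.17, 0.28 and -0.15 on day 10 and -0.27, 0.27 and 0.08 on day 14 in replicates 1 to 3, all more than 1 above its day 8 spots. CG6418 at -1.19, PNPase at -1.19, CG4853 at -1.17, RanGAP at -1.05, the tetraspanin gene Tsp97E at -1.04 and ImpL2 at -1.03 made up the rest.

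The higher end held few named genes. Yp1 and Yp3, yolk proteins made by the fat body and ovary of females, stood at 1.66 and 1.00 in these male heads. The Yp1 spots were 1.70 and 1.62 on day 8. The gene then had 0.09, -0.17 and 1.95 in replicates 1, 3 and 4 of day 10 and 0.17, 0.08 and -0.99 in replicates 1 to 3 of day 14. Yp3 had spots of 1.10 and 0.90 on day 8, followed by 0.30, 0.24, -0.18 and 1.12 on day 10 and 0.12, -0.02 and -0.91 in replicates 1 to 3 of day 14. The 2 genes were high in the same later array, replicate 4 of day 10, and low in the same array, replicate 3 of day 14, and day 8 did not lie apart from day 10. The limma adjusted p of both was 0.999. The other measured female germ line marker, grk, stood at -0.86, and the other measured fat body markers lay between -0.50 and 0.26. The part of other tissue in the yolk protein values was not tested. CG13384 had spots of 2.10 and 1.98 in 1 column, with -0.02, 0.01, 0.09 and -0.21 on day 10 and 0.57, -0.23 and -0.44 in replicates 1, 3 and 4 of day 14 (limma adjusted p = 0.555). Rpn13, a ubiquitin receptor of the proteasome, stood at 1.76 on 1 spot, while the other 9 proteasome genes lay between -0.37 and 0.32. On 1 spot each, CG17233 stood at 1.39, CG4594 at 1.32 and Gen, a nuclease that cuts Holliday junctions, at 1.09.

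Of the 2, 4, 8 and 9 measured genes of GABA, glutamate, monoamines and the synapse, none stood at or past 1, against 2.79% of all 2010 genes. At that share, lists this small would often hold none, so the count does not show that these genes were unchanged. Of 6 GABA genes on the array, 2 had a value. The GABA genes with a value were Gad1, which makes GABA, with spots of 0.10 and 0.03, and Gabat, which breaks it down, with spots of -0.01 and 0.06. Gad1 had -0.05, -0.09, -0.54 and -0.17 on day 10 and 0.01, 0.24, 0.26 and 0.04 on day 14, and its day 8 value lay among them. The 4 glutamate genes were all below zero, with a median of -0.13, from GluClalpha, a glutamate-gated chloride channel, at -0.07 to the transporter gene Eaat2 at -0.30. With the run medians set to 0, their median was -0.06, 1 of the 4 was above zero and Eaat2 stood at 0.00. Of 9 genes of the synapse and transmitter release, 2 were above and 7 below zero with a median of -0.12, and none was beyond 0.5. With the run medians set to 0, 1 was above and 8 below. Csp, a co-chaperone of synaptic vesicles, was lowest at -0.49, and the neuroligin gene Nlg3 highest at 0.08. Of 9 second messenger genes, 8 were below zero and 7 of the 9 lay within 0.06 of it, and with the run medians set to 0, 4 were above and 5 below. Galphaq, the G protein of phototransduction, had spots between -0.74 and 0.02 and a mean of -0.49, and Frq2, a frequenin calcium sensor, was highest at 0.20. DAT, the dopamine transporter, was the lowest of 8 monoamine genes at -0.69, from spots of -0.81 and -0.57. It had -0.38, -0.29, -0.20 and -0.72 on day 10 and 0.40, -0.16 and 0.03 in replicates 1 to 3 of day 14, so that day 8 was within the range of day 10 and below day 14. Sptr, sepiapterin reductase, which makes the cofactor of monoamine synthesis and is not on that list, had spots of -0.83 and -1.49.

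SKIP, whose protein binds the Shal potassium channel, had nearly the same value on day 8 and day 10. Its day 8 spots were -0.50 and -0.63, and it had -0.55, -0.44, -0.43 and -0.56 on day 10 and 0.00, 0.01, -0.14 and -0.11 on day 14. All day 8 and day 10 values lay below all day 14 values. Day 8 minus day 14 was -0.50 (limma adjusted p = 1.00), which did not pass the test. The 5 other ion channel and pump genes lay between -0.09 and 0.28.

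Sensory, muscle and defence genes mostly lay near zero. Of 9 photoreceptor genes, inaD, the scaffold of the phototransduction complex, was highest at 0.45, and chp, chaoptin, lowest at -0.52. Arr2, trp and inaC stood at zero to 2 decimals. Of 7 muscle genes, 5 were above zero, with a median of 0.21, led by the troponin C genes TpnC41C at 0.48 and TpnC73F at 0.36 and with Act88F, the flight muscle actin, lowest at -0.17. Of 22 cytochrome P450 genes, 11 were above and 11 below zero. Cyp4e1 at -1.22 and Cyp4aa1 at -1.16, both on 1 spot, were lowest and Cyp313b1 highest at 0.48. Cyp4e1 was also below zero on all 4 day 10 arrays, at -0.46, -0.74, -0.21 and -0.20, and stood at 0.30 in replicate 1 of day 14, which alone measured it that day. Glutathione transferases lay between -0.35 and 0.36, odorant-binding and other chemosensory genes between -0.37 and 0.36 and immune genes between -0.68, for the Bomanin gene BomT3, and 0.18.

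**Figure D3:**
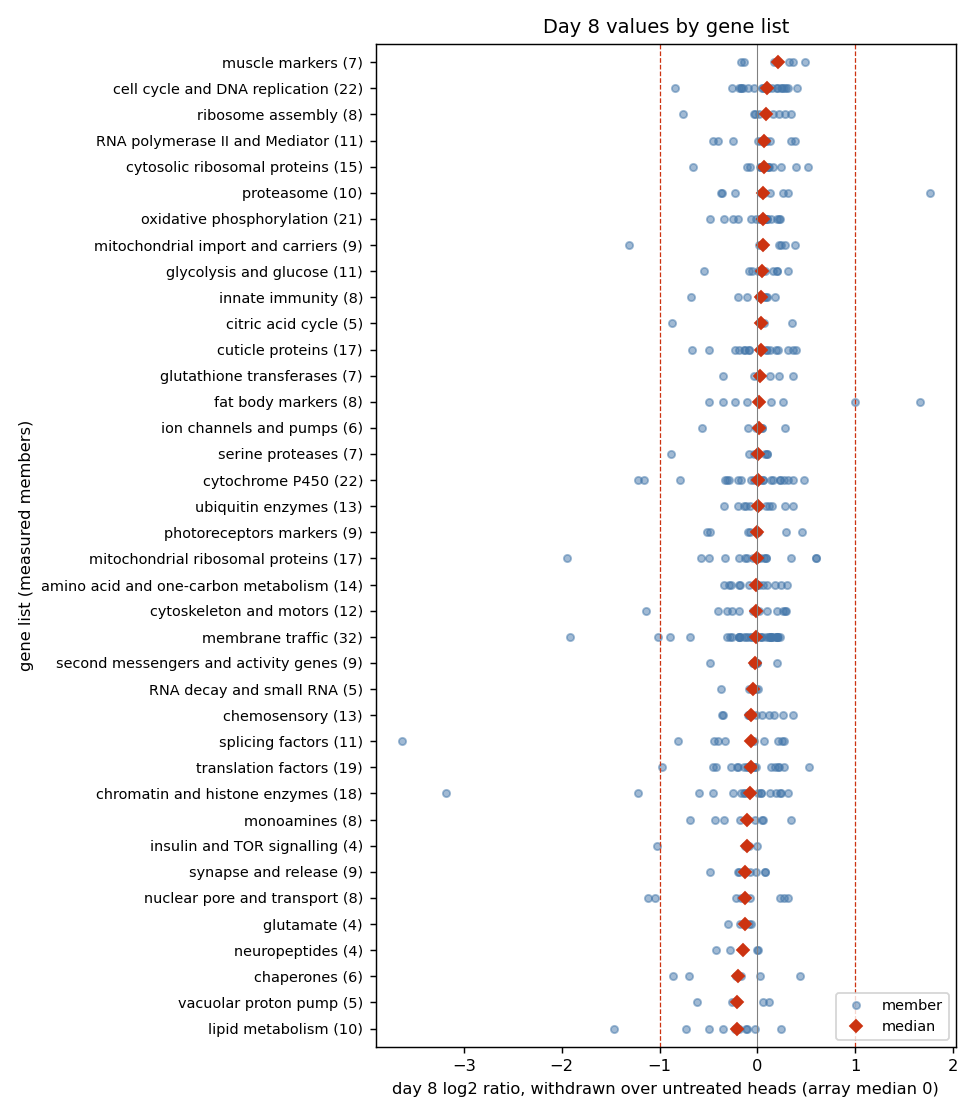
Day 8 log2 ratios (withdrawn over untreated heads, x axis) of the measured members of the 38 gene lists with at least 4 members, with the number measured in brackets. Circles are genes and diamonds list medians, which run from -0.21 for lipid metabolism to 0.21 for muscle markers.

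The day 8 values differed with the place of the spot in the order of spot numbers. When the spots were cut into 48 equal runs of consecutive numbers, the run medians lay between -0.34 and 0.17. Runs 1 to 24 had a median of 0.09 and 10 of 1107 genes at or past 1, or 0.903%. Runs 25 to 48 had a median of -0.11 and 46 of 903 genes at or past 1, or 5.09%. On the 8 later arrays runs 1 to 24 were also above runs 25 to 48, with spot medians of 0.00 to 0.07 and of -0.13 to -0.03, against 0.08 and -0.13 over all day 8 spots. U2af50 and Bap60 lie in runs 42 and 41 and CRIF in run 6. With each run set to its own median, 50 genes were at or past 1, 8 higher and 42 lower, and the 3 genes called by limma were the same. The sources used here do not say how the spots lie on the slide, and what the run contributes to a gene value was not tested.

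**Figure D4:**
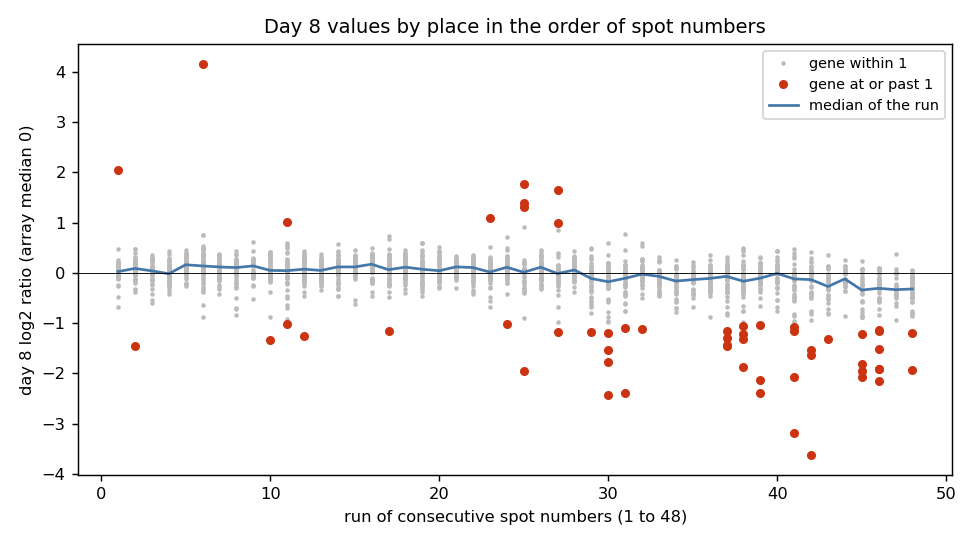
Day 8 log2 ratio (y axis) of each gene by the run of consecutive spot numbers that holds it (x axis). Grey points are genes within 1, red points the 56 genes at or past 1 and the blue line the run median, and 46 of the red points lie in runs 25 to 48.

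The genes at or past 1 made up 38 of 976 genes with a value in a single column, or 3.89%, 8 of 544 genes in 2 columns, or 1.47%, and 10 of 490 genes in 3 or 4 columns, or 2.04%. Of the 26 genes on a single spot, 5 were at 1 or more (19.2%) and 11 at -1 or less (42.3%). Among genes on at least 2 spots, the shares were 0.202% and 1.81%. By chromosome arm, taken from the RefSeq annotation, the X held 297 genes with 2 higher and 10 lower (3.37%) at the size of 1. The lower genes were 15 of 495 on 3R (3.03%), 9 of 378 on 2L (2.38%), 7 of 403 on 2R (1.74%) and 6 of 383 on 3L (1.57%). Over all 2010 genes the share was 2.34%. The X genes included U2af50, Bap60, DENR, Lst8, Sec22, Dhdds, corolla, Yp1 and Yp3. The 26 genes of chromosome 4 had a median of -0.17 and none at or past 1, against 2.79% of all 2010 genes. At that share, a set this small would often hold none.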

How the data were processed

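Values are log2 ratios, 1 per spot and column, deposited by the authors and normalized by ratio, per the labels. Per the series text, GenePix Pro 6.0 quantified the images, Acuity 4.0 normalized them, and dim, saturated or uneven spots were dropped. The base of the logarithm was assumed to be 2.

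The platform table names 1 gene for 15116 of 27648 spots, which were used, several for 102 and none for 12430. RefSeq gave current symbols for 14894 spots. Column medians were set to 0, the 4 day 8 columns merged (any value counts), spots averaged per gene, and genes with spots over 1 apart left out. A mean per day was fitted to 9 samples with limma 3.58.1 in R 4.3.3 (lmFit, eBayes, prior degrees of freedom 4.76, 5549 genes). The weight of day 8 was lowered so that its error rose 1.83 times, the ratio of twin spot SDs over all pairs, those over 1 apart included. Genes needed 2 residual degrees of freedom, and a difference between days needed 3 of 4 arrays of the later day. P-values were adjusted by Benjamini-Hochberg over all genes tested, with calls under 0.05. They rest on the spread among the arrays within day 10 and within day 14, and no spread among day 8 arrays enters them. Dye terms could not be fitted, since the sources used here do not say which arrays were swapped. The number of arrays limits the precision.

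The members and the 52 lists were chosen with earlier results of these data known. From lists built by spelling, 40 symbols of other function were removed. The rule for naming genes took the 12 highest and 12 lowest genes on at least 2 spots and in at least 2 columns, the 5 highest and 5 lowest on 1 spot, every called gene, the extremes and members past 1 of lists with at least 4 members, the GABA genes, the 3 smallest p per direction of each difference and the 3 genes on each side of the span limit. Axn, alpha-PheRS, Scsalpha2, Sptr, CG13384 and other genes beyond this rule were named after their values were seen. Alternatives were other centrings, spot and column filters, equal weights, a robust prior, turned day 10 signs and leaving out each column or array.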

Additional observations from a re-analysis of the deposited data

Results flagged for a closer look

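Among the values of days 10 and 14 for the genes named, 99 groups of 4 arrays were checked for a lone extreme value, and 1 was found. Lst8 had 0.13, 0.10 and 0.08 in replicates 1, 3 and 4 of day 10 and -0.33 in replicate 2. Chance gives such a value in about 1 of 20 groups.

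The limma test of the difference between days passed for 3 genes. Day 8 is 1 sample with no spread of its own, so these tests assume that it varies like the later arrays, with its error raised 1.83 times. CRIF differed by 4.13 for day 8 minus day 10 and by 4.01 for day 8 minus day 14. U2af50 differed by -3.49 for day 8 minus day 10 and by -3.70 for day 8 minus day 14. Bap60 differed by -3.05 for day 8 minus day 14. These differences share the day 8 sample, and CRIF and U2af50 rest on 1 spot each.

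Spots with no gene name were outside the comparisons. Of 2012 pairs of unnamed neighbouring spots that lay within 1 of each other on day 8, 35 pairs were at -1 or less and 3 at 1 or more, from -2.59 to 1.85.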

How the results depend on the processing

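Counts depended on the processing. The 56 genes at or past 1 became 12 with spots in at least 3 columns, 91 with no limit on the span and 145 at a size of 1.5-fold, and 39 to 55 when a day 8 column was left out. The 3 genes called against zero became 1 with spots in at least 3 columns, 9 with no limit on the span, 0 on at least 2 spots (31 at an unadjusted p under 0.05), 31 with equal weights and 24 with equal weights and run medians set to 0 (added after the data had been seen), and 2 to 3 when a column or array was left out. The 2 genes called for day 8 minus day 10 became 1 with values as deposited, 1 with spots in at least 3 columns, 0 on at least 2 spots (25 at an unadjusted p under 0.05), 14 with equal weights and 11 with equal weights and run medians, and 1 to 2 when a column or array was left out. The 3 genes called for day 8 minus day 14 became 1 with spots in at least 3 columns, 6 with no limit on the span, 0 on at least 2 spots (23 at an unadjusted p under 0.05), 17 with equal weights and 15 with equal weights and run medians, and 1 to 3 when a column or array was left out. U2af50 was called in all 3 tests under every alternative except the limit to at least 2 spots, which removes it, and values as deposited for day 8 minus day 10. Where an array of the later day was left out, CRIF and Bap60 could drop out only because too few values remained, as given above. With values as deposited, DENR took the place of CRIF for day 8 minus day 14. The deposited medians of the day 14 arrays were 0.558 to 1.588. Turning the signs of day 10 replicates 1, 2 and 3 ended the Bap60 calls and left CRIF and U2af50. Of 757 values of named genes under 8 alternatives, 746 moved by less than the spread between twin spots, 0.264. The 11 that moved by more all did so with run medians set to 0, and 0 changed sign while past 1. The other alternatives could hardly move a value that far. The day 8 columns hold the same values, 2 spots have the same mean and median, and the deposited day 8 medians were 0.16 to 0.194. The 746 values are therefore no measure of stability. No paired analysis was possible because the 4 day 8 columns, numbered 1 to 4 in the labels, hold the same values and count as 1 sample, which leaves no day 8 replicates to pair with those of other days. Signal over background was not analysed here.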

Other observations

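Among the 122 genes left out because their spots lay over 1 apart, the lowest mean values were those of Map60 at -4.32 (spots of -5.27 and -3.38), CG11474 at -4.13, Cyp308a1 at -3.75 and BTBD9 at -3.41. The highest were CG10914 at 3.26 (spots of -0.08 and 6.60), fs(1)Ya at 2.41, dl at 2.04 and Clic at 1.72. Map60 encodes a microtubule-associated protein of the centrosome, and dl, dorsal, a transcription factor of the NF-kappaB family. Both Map60 spots were low, while a single spot carried the value of CG10914.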
